A study of Mus musculus with 9 samples.

Results

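The chemokine genes Ccl2, Ccl7, Ccl9, Cxcl1 and Cxcl10 were followed after surgical handling of the small bowel, in its outer muscle coat, the muscularis externa (ME). They were taken by gene symbol from the 2 deposited expression tables, where each was present as 1 transcript, and they are 5 of the 531 genes that these tables hold. Ccl2 and Cxcl1 stood in both tables, Ccl7 in the authors' gliosis table alone, and Ccl9 and Cxcl10 in their table of changed genes alone.

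Chemokines are small secreted proteins that bind G protein-coupled receptors on leukocytes and direct their movement along a concentration gradient. Members of the CC family, with adjacent cysteines near the N-terminus, mainly attract monocytes and other mononuclear cells, whereas CXC members that carry a glutamate-leucine-arginine motif attract neutrophils. In the gut muscle such ligands can be made by resident macrophages, glia, smooth muscle and mesothelial cells, and blood leukocytes enter this layer during postoperative ileus, the loss of bowel motility that follows abdominal surgery. Ccl2 and Ccl7 are ligands of Ccr2, Ccl7 and Ccl9 bind Ccr1, and Cxcl1 acts through Cxcr2 on neutrophils. Cxcl10 lacks that motif and is known as an interferon-inducible ligand of Cxcr3 on activated T cells and natural killer cells, so by its receptor it is neither a typical monocyte nor a typical neutrophil attractant.

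The study profiled 9 libraries from BL6 mice of 8 to 12 weeks in 3 groups of 3, namely controls, mice 3 h after intestinal manipulation (IM3h) and mice 24 h after it (IM24h). Intestinal manipulation (IM) is a standardized rolling of the exposed small bowel with moist cotton swabs after opening of the abdomen. The labels describe the controls as sham operated, whereas the table headers and the study's own text on this RNA-Seq call them naive. Which of these applies was not settled here, so an effect of laparotomy may or may not be contained in the differences from control. The labels do not tie libraries to single mice. All 3 IM3h libraries carry names of 1 number series and the other 6 libraries names of another, so this series and the time point of 3 h cannot be told apart.

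The values are the authors' group means from 3' RNA-Seq, in which 1 fragment is read per transcript so that gene length does not enter the level. The column headers speak of counts, but the values are not whole and how they were scaled is not stated in the labels, headers or methods, so they are called normalized counts. Values of single libraries were not used here. The spread between libraries and the depth of each library are therefore unknown, no difference below could be tested against replicate error, and the statements compare group means only. Ratios are given on the log2 scale with a pseudocount of 1 normalized count added to each mean, and a gene was counted as higher or lower where this ratio passed 1.5-fold, the size limit of the study's methods. Ranks of ratios refer to this pseudocount. The gliosis table held 155 transcripts of 109 genes that the study listed for gliosis, the reactive state of glia. The table of changed genes held 502 transcripts of 444 genes, all with at least a 2-fold difference in every pairwise comparison of the groups, so the presence of Ccl9 and Cxcl10 in the data depends on that selection. For genes of that table, passing the 1.5-fold limit was largely fixed in advance, and mainly the direction was free. ME is a mixed tissue, and more cells of a type and more RNA per cell cannot be told apart. Of the smooth muscle markers only Myl9 was in the tables, at 2414, 1963 and 1291 normalized counts in control, IM3h and IM24h. Of the enteric glial markers 2 were in the tables, and 1 of them, Gfap, is reported here, so no course of the glia is read from it. Absence of a marker from selected tables is no sign of its absence from the tissue.

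All 5 chemokine transcripts were low in controls, between 0.230 and 2.52 normalized counts, and higher at both times after IM, but they peaked at different times. Ccl2 and Cxcl1 were highest at 3 h, Cxcl10 was also highest at 3 h at a lower level, Ccl7 was similar at both times, and Ccl9 was highest at 24 h. In the authors' means the summed level of the 5 transcripts was 6.12 normalized counts in controls, 286 at IM3h and 302 at IM24h. The sum was thus almost the same at both times while its composition changed, since Ccl2 made up 64.3% of it at 3 h and 16.8% at 24 h, and Ccl9 4.45% at 3 h and 60.2% at 24 h.

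**Figure D1:**
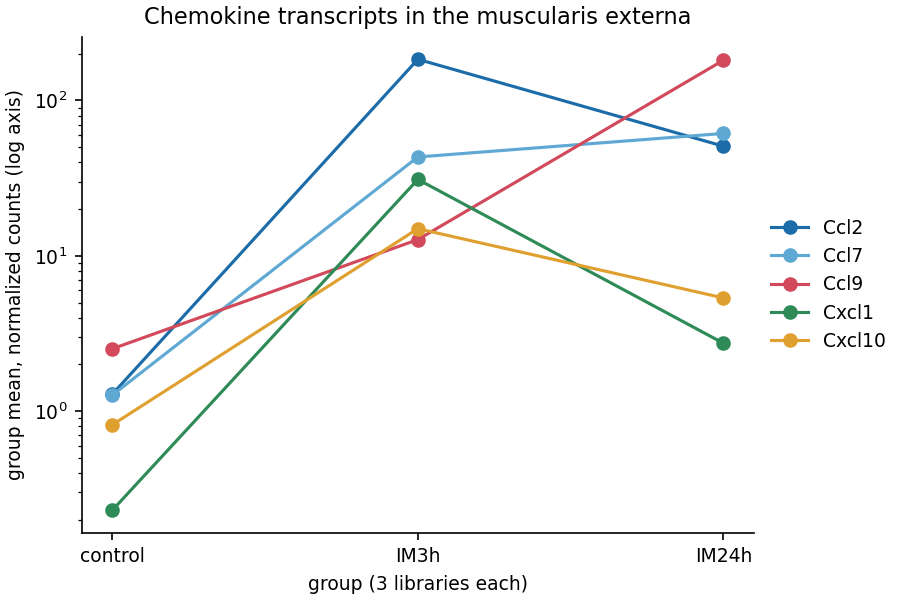
Authors' group means of the 5 chemokine transcripts in control, IM3h and IM24h, in normalized counts on a log axis, each point being 1 group mean over 3 libraries with no error available. Ccl2 reached 184 at IM3h and Ccl9 182 at IM24h, whereas Ccl7 stayed between 43.3 and 61.3 after IM.

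Ccl2, the main attractant of classical monocytes, had a mean of 1.29 normalized counts in controls, 184 at IM3h and 50.8 at IM24h. Its log2 ratio to control was 6.34 at 3 h, the highest of the 531 genes, and 4.50 at 24 h. The 24 h mean was 27.6% of the 3 h mean, a log2 ratio of -1.84 between the times. Ccl7, a monocyte attractant whose gene lies directly beside Ccl2 on chromosome 11 in the RefSeq annotation, had means of 1.27, 43.3 and 61.3. The neighbouring genes therefore had similar, low control means, with Ccl2 at 1.01 times Ccl7, then differed 4.25-fold at 3 h, and at 24 h Ccl2 was at 0.828 times Ccl7. Without the spread between libraries, equality in controls cannot be told. The log2 ratio of Ccl7 to control was 4.29 at 3 h and 4.78 at 24 h, ranks 12 and 10 of the 531 genes. Between the 2 times Ccl7 did not pass the 1.5-fold limit, with a log2 ratio of 0.49, and a gene with so small a difference could not enter the table of changed genes. Together Ccl2 and Ccl7 summed to 2.55 normalized counts in controls, 227 at 3 h and 112 at 24 h.

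Ccl9, a CC chemokine of myeloid cells, followed another course, with means of 2.52 in controls, 12.7 at IM3h and 182 at IM24h. It had the highest control mean of the 5, and at 3 h its mean was close to that of Cxcl10 and below those of the other 3. At 24 h it was the highest, 2.96 times the level of Ccl7 and 3.58 times that of Ccl2. Its log2 ratio to control was 1.96 at 3 h, rank 91 of 531, and 5.70 at 24 h, rank 6. The ratio between the times was 3.73, the fourth highest of all genes in the tables.

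Cxcl1, the keratinocyte-derived neutrophil attractant, was almost undetected in controls, with a mean of 0.230 normalized counts, or 0.691 summed over the 3 libraries. It was at 31.0 at IM3h and 2.74 at IM24h. The log2 ratio to control was 4.70 at 3 h, rank 4 of 531, and 1.60 at 24 h, rank 173. At 24 h it stood at 8.83% of its 3 h level, the smallest such share of the 5, with a log2 ratio of -3.10 that was the fifth lowest of all genes in the tables. Because the control sum was below 1 normalized count, the ratios to control depend on the pseudocount, the log2 ratio at 3 h being 7.07 with no pseudocount and 2.78 with a pseudocount of 5. The same pseudocount of 5 put Cxcl1 below the 1.5-fold limit at 24 h, at 0.57. The log2 ratios of the other chemokines at 3 h also moved between no pseudocount and 5. They went from 7.16 to 4.91 for Ccl2, 5.09 to 2.95 for Ccl7, 4.19 to 1.78 for Cxcl10 and 2.34 to 1.24 for Ccl9. Without a pseudocount Ccl2 and Cxcl1 were close at 3 h, at 143 and 135 times control. Cxcl10 had means of 0.817, 15.0 and 5.36 in control, IM3h and IM24h. Its log2 ratio to control was 3.13 at 3 h and 1.81 at 24 h, and its 24 h level was 35.8% of the 3 h level. At 3 h Cxcl10 and Ccl9 were close, Cxcl10 being at 1.18 times the level of Ccl9, and without the spread between libraries their order cannot be told. The same holds for Cxcl1 and Ccl7 at 3 h, at 0.717, and for Ccl2 and Ccl7 at 24 h.

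**Figure D2:**
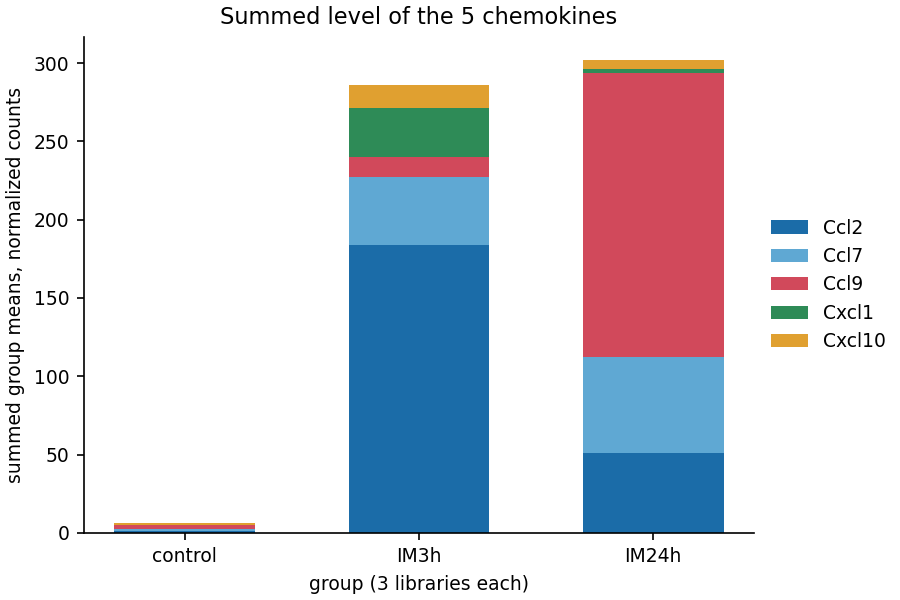
Stacked authors' group means of the 5 chemokines in normalized counts, 1 bar per group on an axis that starts at 0, without error bars. The bars of IM3h and IM24h reach 286 and 302, against 6.12 in controls, and Ccl9 replaces Ccl2 as the largest segment.

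Seen by family, the 3 CC members summed to 5.08 normalized counts in controls, 240 at 3 h and 294 at 24 h. The 2 CXC members summed to 1.05, 46.0 and 8.10, so that their share of the 5 was 17.1% in controls, 16.1% at 3 h and 2.68% at 24 h. Without Ccl9 the sum of the remaining 4 was 273 at 3 h and 120 at 24 h, 2.27 times as high at 3 h as at 24 h. The near equality of the full sums thus depended on this 1 gene.

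The promoters of members with different time courses are shown because transcription factors of the NF-kB and AP-1 families and interferon-activated factors are textbook regulators of chemokine genes. RefSeq windows of GRCm38.p6 were found for Ccl9, Cxcl1 and Cxcl10, 3 of the 5. The 250 bases before the annotated start site are printed 5′ to 3′ on the strand of the gene, with all motif matches in capitals. They lie at chr5:90890995-90891244 (plus strand) for Cxcl1, chr5:92348890-92349139 (minus strand) for Cxcl10 and chr11:83578637-83578886 (minus strand) for Ccl9.
Cxcl1: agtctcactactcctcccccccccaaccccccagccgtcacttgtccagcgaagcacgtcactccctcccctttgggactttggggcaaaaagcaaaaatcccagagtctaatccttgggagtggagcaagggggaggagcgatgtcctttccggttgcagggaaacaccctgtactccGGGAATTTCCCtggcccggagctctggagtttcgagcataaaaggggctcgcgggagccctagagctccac
Cxcl10: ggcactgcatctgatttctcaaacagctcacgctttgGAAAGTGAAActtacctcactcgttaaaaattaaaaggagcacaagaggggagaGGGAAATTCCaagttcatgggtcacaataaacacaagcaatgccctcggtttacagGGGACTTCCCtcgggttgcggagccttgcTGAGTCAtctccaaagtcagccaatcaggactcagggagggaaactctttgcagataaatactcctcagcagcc
Ccl9: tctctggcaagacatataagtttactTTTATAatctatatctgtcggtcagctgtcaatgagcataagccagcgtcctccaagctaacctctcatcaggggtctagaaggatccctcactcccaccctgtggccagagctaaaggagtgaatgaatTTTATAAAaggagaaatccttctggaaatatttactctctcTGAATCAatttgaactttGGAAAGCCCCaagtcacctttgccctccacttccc

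Both strands were searched for the 10-base NF-kB consensus, the AP-1 motif TGANTCA, the interferon response element (GAAA and GAAA separated by any 2 bases), the C/EBP motif TTGCNNAA and the TATA box TATAAA. The NF-kB consensus was present in all 3 windows and in 3.90% of 32851 promoter windows of the same length. Cxcl1 held it at 71 to 61 bases before the start, as 2 matches on opposite strands that share 9 bases. Cxcl10 held it at 159 to 150 and again at 103 to 94 bases before the start. The match of Ccl9 lay on the opposite strand at 35 to 26 bases before the start. An AP-1 match stood in Cxcl10 (74 to 68 bases before the start) and in Ccl9 (53 to 47), against 6.75% of all windows. The interferon response element was found in Cxcl10 alone of the 3, at 213 to 204 bases before the start and in 2.98% of all windows. TATAAA matched Ccl9 in 3 places, of which 2 overlap by 4 bases on opposite strands. On the strand of the gene it lay only at 92 to 87 bases before the start. The matches at 224 to 219 and 94 to 89 were on the opposite strand. No match to the C/EBP motif lay in any of the 3 windows (12.4% and 9.56% of all windows hold the TATAAA and C/EBP motifs). The early genes Cxcl1 and Cxcl10 and the late gene Ccl9 thus shared a match to the NF-kB consensus. These matches describe letters in the windows and were not tested for binding or activity.

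**Figure D3:**
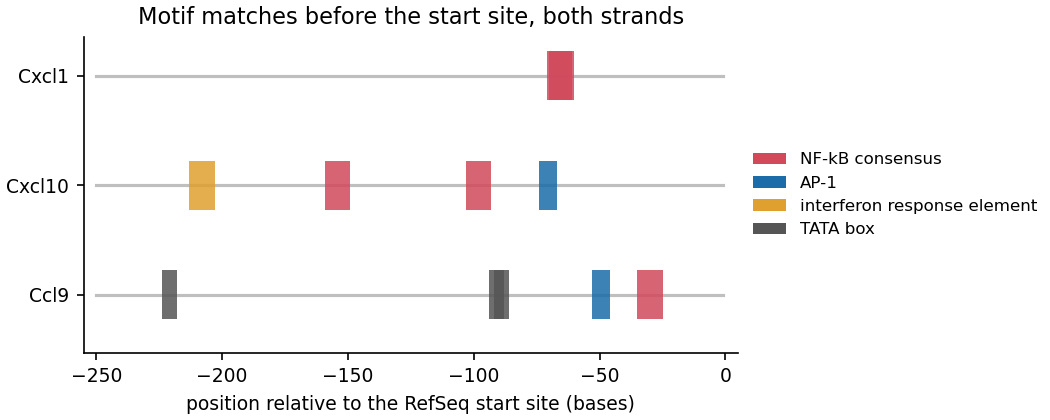
Motif matches on both strands in the bases before the RefSeq start sites of Cxcl1, Cxcl10 and Ccl9, drawn to scale as boxes by distance from the start site in bases. NF-kB matches are present in all 3 windows, at 71 to 61 bases before the start in Cxcl1 and at 35 to 26 in Ccl9, and overlapping matches are drawn over each other.

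Compared with controls, the question at 3 h was how the ME responds early after handling. All 5 chemokines were higher at IM3h, with log2 ratios from 1.96 for Ccl9 to 6.34 for Ccl2 and a median of 4.29. Of all 531 genes 48.8% were higher at 3 h by the same limit and the median log2 ratio was 0.55. In the gliosis table, which had no selection by fold, 44.0% of genes were higher and all 3 chemokines in it, Ccl2, Ccl7 and Cxcl1, were among them. At 24 h, when postoperative inflammation is established, all 5 were again higher than in controls, with log2 ratios from 1.60 for Cxcl1 to 5.70 for Ccl9 and a median of 4.50. The corresponding shares were 75.5% of all 531 genes, whose median was 1.12, and 66.1% of the gliosis table. A count of 5 of 5 at 24 h therefore differs little from what most listed genes did, and the distance lies in the size of the ratios of Ccl9, Ccl7 and Ccl2, which ranked 6, 10 and 11 of 531, whereas Cxcl10 and Cxcl1 ranked 144 and 173. These ranks depend on the pseudocount. Without it, S100a9, Lcn2, H19 and Timp1 were at 337, 336, 205 and 111 times control at 24 h, against 72.0 times for Ccl9.

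From 3 h to 24 h, Ccl2, Cxcl1 and Cxcl10 were lower and Ccl9 was higher, while Ccl7 stayed within the limit. Ccl2, Ccl9, Cxcl1 and Cxcl10 stood in the table of changed genes, which holds only differences of at least 2-fold. That these passed the limit and Ccl7 did not was therefore largely fixed by the table each stood in. Mainly the direction was free. Lower levels at 24 h than at 3 h were found for 28.4% of all genes and 20.2% of the gliosis table, and higher levels for 63.5% and 42.2%. The 3 contrasts share group means, so their values are set side by side and are not independent. The median log2 ratio of the gliosis genes themselves was 0.43 at 3 h, 1.17 at 24 h and 0.39 between the times. Relative to these medians the ratios of Cxcl1 and Cxcl10 to control at 24 h were 0.44 and 0.64, so Cxcl1 then no longer passed the limit, and those of Ccl2, Ccl7 and Ccl9 were 3.33, 3.61 and 4.53. At 3 h the centred ratios ranged from 1.53 for Ccl9 to 5.91 for Ccl2.

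**Figure D4:**
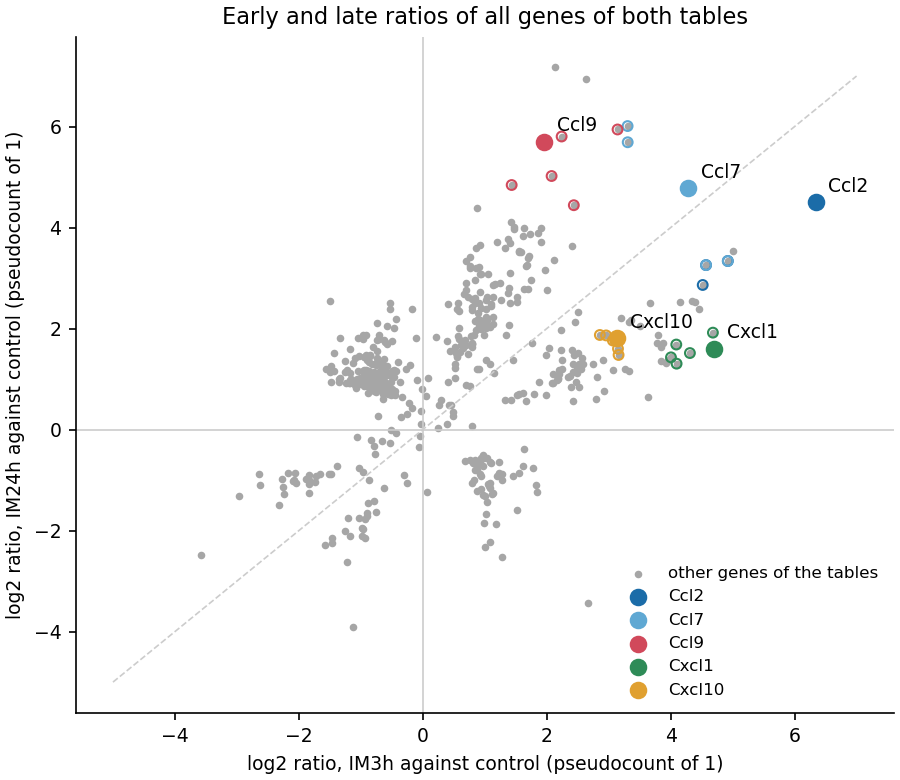
Log2 ratio to control at 24 h against that at 3 h for the 531 genes of both tables, 1 point per gene and a pseudocount of 1, with the 5 chemokines as large points, the reported genes nearest to each as rings in its colour (rings shared by Ccl2 and Ccl7 in that of Ccl7) and equal ratios as a dashed line. Ccl2 has the highest ratio at 3 h (6.34), Ccl9 lies far above the dashed line (1.96 and 5.70) and Cxcl1 far below it (4.70 and 1.60).

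Genes with the most similar course were those at the smallest distance in the 2 log2 ratios to control. Nearest to Cxcl1 were Hspa1a, a heat shock protein gene (distance 0.32), Fos, an immediate early transcription factor (0.40), the receptor kinase inhibitor Errfi1 (0.62), the growth arrest gene Gadd45b (0.68) and the transcription factor Egr1 (0.72). Cxcl10 stood closest to the metalloreductase Steap4 (0.08), the apoptosis inhibitor Birc3 (0.19), the death receptor Fas (0.21), the matricellular gene Ccn1 (0.29) and the cytokine feedback gene Cish (0.33). For Ccl9 the order was Timp1, an inhibitor of matrix metalloproteases (0.30), the myeloid receptor Cd300lf (0.69), then Chrdl2, the noncoding RNA H19 (1.21) and S100a9, a neutrophil calcium-binding protein (1.34). Ccl2 and Ccl7 had no close companion. Among the 5 genes nearest to Ccl2 were the aggrecanase Adamts4 (1.83), Ccl7 (2.07), the signalling inhibitor Socs3 (2.16) and the heme oxygenase Hmox1 (2.45). Among those nearest to Ccl7 were Vmp1 (1.34), Socs3 (1.55), Serpina3n (1.57) and Adamts4 (1.58). Among the chemokines themselves the closest pair was Cxcl1 and Cxcl10 at 1.58 and the farthest Ccl9 and Cxcl1 at 4.93. These distances rest on 3 group means, and without the pseudocount only 7 of the 25 pairs were found again.

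Of 37 mouse chemokine ligand genes listed for comparison, 6 were in the tables, the only one besides the 5 being Ccl25, a chemokine of gut lymphocyte homing, through its noncoding transcript NR_033527. Its means of 1.59, 3.98 and 0.752 normalized counts were low in every group, with a log2 ratio of 0.95 at 3 h and -0.56 at 24 h. Of 24 chemokine receptor genes 2 were in the tables, and 1 of them is described here. Ccr1, the receptor of Ccl7 and Ccl9, had means of 0.621, 3.88 and 17.7 in control, IM3h and IM24h, with log2 ratios to control of 1.59 and 3.52. The mean of Ccr1 was thus highest at 24 h, as was that of Ccl9, whereas Ccl7 was within the limit between the times and Ccl2, Cxcl1 and Cxcl10 were highest at 3 h. Of all 531 genes 63.5% were higher at 24 h than at 3 h. Ccr1 and Ccl9 both stood in the table of changed genes alone, so a difference was given and only its direction was free. Ccr2, Cxcr2 and Cxcr3 were in neither table and were not analysed here.

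Genes listed for NF-kB and cytokine signalling were few in the tables, and their part in chemokine transcription was not tested. Of 30 genes for NF-kB and cytokine signalling 5 were in the tables, of which 4 were higher than control at 3 h and 5 at 24 h, and 4 were lower at 24 h than at 3 h. The shares of all 531 genes were 48.8%, 75.5% and 28.4%, so the count at 24 h is near that of the tables as a whole. Nfkbia, the NF-kB inhibitor that is itself an NF-kB target, had means of 126, 1065 and 286 normalized counts. Socs3 had means of 7.66, 205 and 81.8, the adhesion molecule gene Icam1 2.58, 50.2 and 10.2, and Tlr2, a receptor for microbial lipoproteins, 1.65, 13.3 and 6.42. The exception was Nfkbie, another NF-kB inhibitor, with 0.829, 1.68 and 3.99. Zfp36, whose protein destabilizes AU-rich cytokine and chemokine mRNAs, was the only one of 10 mRNA decay genes in the tables, with means of 12.1, 77.0 and 33.9. None of 22 interferon response genes and none of 15 lymphocyte genes was in the tables, so no reading of the cells or signals linked to Cxcl10 was possible.

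Genes listed for monocytes, macrophages and neutrophils were also in part contained in the tables. In this mixed tissue their levels do not show which cells made them. The list of 21 monocyte and macrophage genes had 8 in the tables, whose summed level was 38.2 normalized counts in controls, 72.2 at 3 h and 329 at 24 h. At 3 h 7 of the 8 were higher than control, and at 24 h 8 of 8, with median log2 ratios of 1.55 and 3.41. Higher levels at 24 h than at 3 h were found for 7 of the 8. Over all 531 genes 48.8% were higher at 3 h, 75.5% at 24 h and 63.5% at 24 h against 3 h, with median log2 ratios of 0.55 and 1.12 to control, so higher means at 24 h were common in the tables. The scavenger receptor Msr1 had means of 1.54, 7.40 and 36.1, and the lysosomal gene Cd68 2.93, 5.64 and 40.8. Csf1r, the growth factor receptor of macrophages, was lower than control at 3 h, at 7.52 against 20.6, when Ccl2 was at its highest, and stood at 74.6 at 24 h. Cd14, a receptor for bacterial lipopolysaccharide, was the only 1 of the 8 with its highest mean at 3 h, at 1.99, 10.9 and 7.38, and is named here because it was the exception. Of 20 neutrophil genes 4 were in the tables, with a summed level of 3.80, 17.3 and 239, of which Lcn2, a siderophore-binding protein, made up most at 24 h with a mean of 192. S100a9 had means of 0.0658, 4.77 and 22.2, the decoy receptor Il1r2 0.124, 2.29 and 11.9, and the protease Mmp9 3.03, 1.42 and 12.7. The neutrophil attractant Cxcl1 was thus highest at 3 h, while all 4 neutrophil genes in the tables were highest at 24 h, a direction shared by most genes of the tables. All 4 came from the table of changed genes, so a difference between the times was given and only its direction was free. None of the genes of these lists that were in the tables was at 0 in any group. The part that entering leukocytes had in the chemokine levels was not tested.

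Enterocyte genes, which belong to the mucosa, also differed between the groups. Of 8 such genes 5 were in the tables, with a summed level of 224 normalized counts in controls, 485 at 3 h and 63.4 at 24 h. All 5 were higher than control at 3 h and lower than control at 24 h, against 48.8% and 18.1% of all 531 genes. All 5 came from the table of changed genes, so a difference was given and only its direction was free. Apoa1 had means of 110, 223 and 33.7, Fabp2 54.3, 133 and 8.61, Apoa4 25.7, 52.5 and 9.68, Krt20 24.1, 53.1 and 9.43, and Sis 9.73, 23.4 and 1.94. Their median log2 ratio to control was 1.11 at 3 h and -1.68 at 24 h. Dcn, the only fibroblast marker of 5 in the tables, was at 506, 249 and 298. The glial gene Gfap, an intermediate filament, was at 2.79, 11.3 and 25.2. Of the lists for enteric neurons, interstitial cells, mesothelium and endothelium, 0 genes were in the tables. The part of mucosal RNA in the chemokine levels was not tested.

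**Figure D5:**
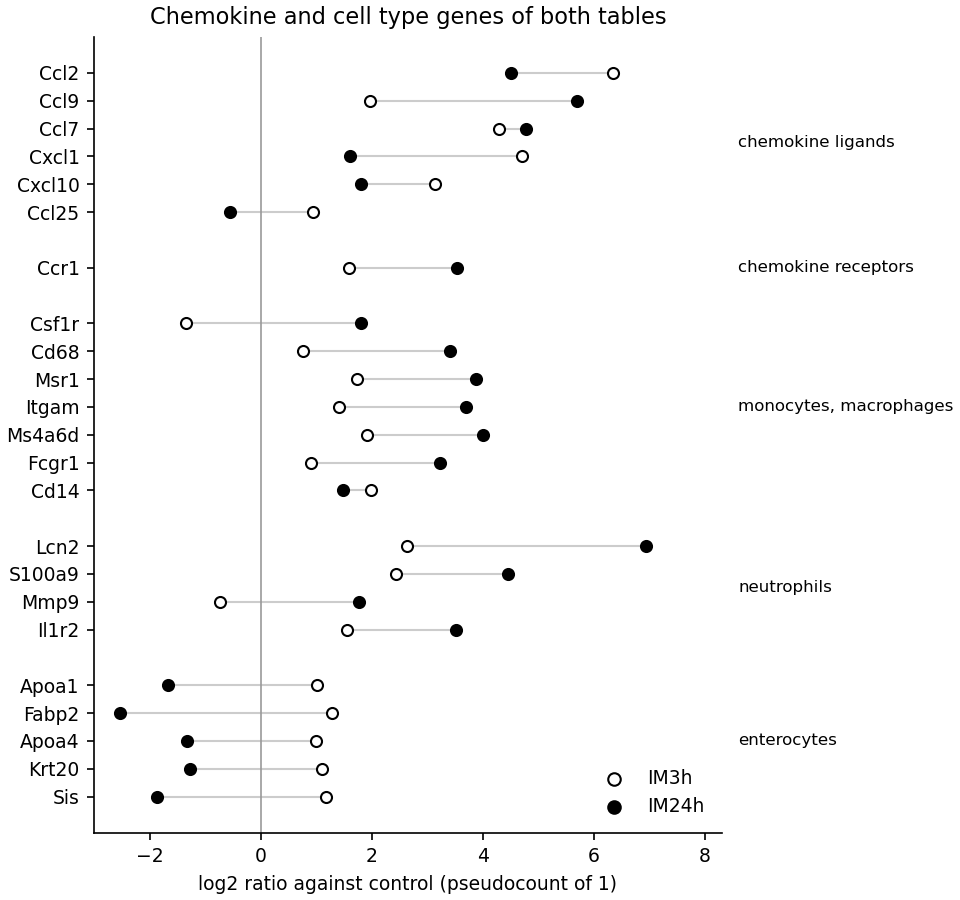
Log2 ratio to control at 3 h (open circles) and 24 h (filled circles), with a pseudocount of 1, for the genes of the chemokine, monocyte and macrophage, neutrophil and enterocyte lists that are reported here, 1 row per gene. Ccr1 and all 4 neutrophil genes have their higher ratio at 24 h, whereas Ccl2, Cxcl1 and Cxcl10 have theirs at 3 h.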

How the data were processed

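ME of the small intestine was profiled by 3' RNA-Seq (QuantSeq) in 3 libraries per group. The submitters' processing notes name Partek. The aligner, genome build, normalization and model are not given in the sources used here. The deposited tables hold the authors' group means and totals of normalized counts as an expression signal, and each of the 155 and 502 totals equalled 3 times the sum of the 3 means. The columns of the authors' own comparisons (p-values, adjusted p-values, ratios and fold changes) and their gene ontology enrichment table were not used. Without values per library no test, error or interval could be computed, and a total of normalized counts over all 9 libraries of 12.1 to 17004 per transcript is the only sign of depth.

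Ratios of means were computed in Python 3.11.15 (pandas 2.3.3, numpy 2.4.6) with a pseudocount of 1 and a limit of 1.5-fold. Each gene was taken by its transcript with the largest total (81 genes had several, the 5 chemokines 1 each). The ratio, distance and motif code was checked on made-up values with known answers. Alternatives were other pseudocounts (none, 0.5 and 5), limits of 2-fold and 10-fold, a total of at least 90, all transcripts, and centring on the median of the gliosis table. Counting all transcripts was applied to the 5 chemokines only, which have 1 each, so it could change nothing. For the gene lists the choice of transcript was not varied. The text names all transcripts of the 5 chemokines, every chemokine ligand and receptor gene in the tables, the 5 genes nearest in course to each chemokine, and of the other gene lists up to 4 genes with the largest totals. Nfkbie, Sis and Cd14 fall outside this rule and were named after their values were seen. The members and the 8 gene and 8 marker lists were chosen with earlier results of these data known. Gene order and promoter sequences came from RefSeq, GRCm38.p6, where 527 of the 531 symbols were found. No protein sequences were compared. Some genes that this rule would name are not reported here.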

Additional observations from a re-analysis of the deposited data

How the results depend on the processing

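A pseudocount added to both means cannot change the direction of a ratio, so of these alternatives only centring could. After centring, all 15 log2 ratios of the 5 chemokines kept their direction, with Ccl7 between the times at 0.10. The order of the ratios at 3 h put Ccl7 above Cxcl1 with a pseudocount of 5, and that at 24 h put Cxcl1 above Cxcl10 with none. A limit of 10-fold left 3 of the 5 above control at 3 h, 3 at 24 h, and 1 differing between the times, in place of 5, 5 and 4. With totals of at least 90, 3 of the chemokine ligand genes differed between the times in place of 5, no receptor gene entered any contrast (0 in place of 2), 3 of the 5 NF-kB and cytokine signalling genes entered at 24 h and between the times, and 1 of the 4 neutrophil genes was counted in each contrast. A limit of 2-fold left 1 receptor gene at 3 h and 3 signalling genes between the times. Centring left 1 receptor gene at 3 h, 1 signalling gene at 24 h, and 0 mRNA decay genes at 24 h in place of 1. Of 25 nearest genes 7 were found again without the pseudocount. For the gene lists the alternatives were no pseudocount, the limit of 2-fold, totals of at least 90 and centring. Of the 72 counts these gave, 58 were within 1.5 times the original count. No paired analysis was possible because the values are group means, and for the same reason libraries could not be left out in turn. Depth limits Cxcl1 and Cxcl10 most, with control sums over 3 libraries of 0.691 and 2.45 normalized counts.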
